A study of Mus musculus with 40 samples.

Results

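The genes described here are 10 targets of the hypoxia-inducible factors (HIFs) that do not code for glycolytic proteins: *Vegfa*, *Adm*, *Bnip3*, *Higd1a*, *Ddit4*, *Ndrg1*, *P4ha1*, *P4ha2*, *Kdm3a* and *Ankrd37*. They were chosen by name with earlier results of these data known, so their counts beside all genes are descriptions and not tests. All 10 are among the 27179 genes of the expression table, and all 10 passed the filter on low values at every time point. They were measured by poly(A) RNA sequencing in bone marrow-derived macrophages (BMDMs), which are grown in culture from bone marrow cells. The cells came from 4 WT and 4 *Cpeb4*-/- mice and were left untreated (0 hr) or exposed to 10 ng/ml LPS, an outer membrane component of bacteria that activates macrophages, for 1, 3, 6 or 9 hr. Each mouse gave a library at each of the 5 times, so the 40 libraries form 10 groups of 4. All mice were male and of a mixed C57BL/6J and 129 background, and the labels used here give no age beyond adult. The 8 mice were handled in 2 batches with 2 mice of each genotype in each. No cage held both genotypes, so that cage and genotype cannot be told apart. CPEB4 is an RNA-binding protein that acts on the poly(A) tails of mRNAs, and the study compared the genotypes to ask how its loss alters the response to LPS.

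HIFs are dimers of an oxygen-regulated alpha subunit and a stable beta subunit. When oxygen is present, prolyl hydroxylases (the EGLN proteins) mark the alpha subunit for recognition by VHL and degradation, and when oxygen falls the subunit persists and the dimer binds a short core sequence, the hypoxia response element, beside its target genes. In macrophages LPS also raises HIF-1 alpha without a fall in oxygen, and the targets then include glycolytic genes as well as genes for secreted vascular factors, mitochondrial turnover, growth control and matrix hydroxylation, to which the genes described here belong.

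To show what lies beside the annotated starts of these genes, the core letters bound by HIF, ACGTG or GCGTG, were searched for on both strands of RefSeq windows (GRCm38.p6, the assembly of mm10) from 250 bases before to 50 bases after a start. The tables used here held 12 windows for 9 of the genes and none for *Ndrg1*. Of these, 9 windows, at least 1 for each of the 9 genes, held the core, against 14380 of all 32851 windows (43.8%). With ACGTG alone the counts were 7 of 12 windows, in 7 genes, against 6447 of all windows (19.6%). These shares compare with the windows and not with the genes. The genes were listed as HIF targets, so the counts are a description with no test. The *Vegfa* match stands beside a downstream start, 7214 bases inside the gene, and the *Vegfa* window at the 5′ end of the gene held no core. The starts used for *Ankrd37*, *P4ha1* and *Kdm3a* lie 564, 99 and 73 bases inside these genes, and the others at their 5′ ends. For each gene the match of ACGTG nearest to a start, or of GCGTG where ACGTG was missing, is shown with the core in capitals. CACGT and CACGC are the same cores read on the other strand, and the sign gives the position of the first capital relative to the start:
*Vegfa* (−211, chr17:46025357-46025386, minus strand): ggagtgcgtgccCACGTcagagagcaacat
*Adm* (−54, chr7:110627591-110627620, plus strand): ggcaaatctgacCACGCccaccgtccgccc
*Bnip3* (−107, chr7:138909596-138909625, minus strand): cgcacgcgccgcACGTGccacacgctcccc
*Higd1a* (+44, chr9:121857747-121857776, minus strand): cgccagcactgccgcccaggcctCACGTct
*Ddit4* (−187, chr10:59951940-59951969, minus strand): agaacgttgcgaACGTGcgcccggtgccta
*P4ha1* (−16, chr10:59323268-59323297, plus strand): tgtgacagagcgCACGTagcgagggctgcg
*P4ha2* (+11, chr11:54100922-54100951, plus strand): cgggaggtggggACGTGgcggaggctcaag
*Kdm3a* (−27, chr6:71632927-71632956, minus strand): ccgggaggctgtGCGTGtcttgtgagagag
*Ankrd37* (−6, chr8:45999839-45999868, minus strand): cagtgtttgggtACGTGaggccgcagcggg

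The values are rlog values, which are on a log2 scale, corrected for library size and shrunken where counts are low, so a fold change from them understates the change of a low gene. Read depths were not used here. The largest root-mean-square distance of a library from its group mates was 0.297, for *Cpeb4*-/- mouse 2 at 9 hr, followed by 0.282 for WT mouse 88 at 3 hr. *Cpeb4*, the deleted gene (chr11:31870104-31935635), was lower in *Cpeb4*-/- by 1.27 (SE 0.186) at 6 hr, where the groups did not overlap (adjusted p = 0.0011, limma with Benjamini-Hochberg adjustment). At the other times its values overlapped, and since the table sums each gene whole, reads from exons that a deleted allele keeps cannot be set apart. All 7 macrophage markers lay at or above 8.89 in every library, whereas *Cd3e* and *Ly6g*, which define T cells and neutrophils, lay at or below 0.87. The lowest macrophage marker was *Mertk*, at 8.89 to 10.57, a range that overlapped with that of the endothelial marker *Kdr* (7.53 to 11.31). Of the other T cell and neutrophil markers, *Cd4* lay at 5.32 to 7.22, and *Ngp* and *Camp* reached 4.59 and 5.0. The summed level of the 7 macrophage markers was lower in all *Cpeb4*-/- libraries than in all WT libraries at every time (at 9 hr, log2 sums of 18.77 to 18.98 against 19.02 to 19.11), and that of 4 fibroblast markers was higher at 9 hr (4.57 to 5.94 against 4.26 to 4.49). The sum of 3 endothelial markers (*Pecam1*, *Cdh5* and *Kdr*) was higher in all *Cpeb4*-/- libraries at 0, 1, 3 and 9 hr (10.52 to 11.03 against 9.67 to 10.12 at the last). That of 3 dendritic cell markers was lower at 6 hr (6.26 to 6.59 against 6.67 to 7.05) and at 9 hr (5.88 to 5.93 against 6.09 to 6.53), and that of the T cell markers was lower at 6 hr (5.96 to 6.31 against 6.46 to 6.52). The sum of 3 B cell markers was higher in all *Cpeb4*-/- libraries at 1 hr (2.31 to 2.74 against 2.0 to 2.29). These are sums of unlogged values, in which the highest gene weighs most. By median rlog over all libraries, *Lyz2* had 18.25 and the next macrophage marker, *Adgre1*, 15.84. *Kdr* had 9.55 against 4.79 for *Pecam1*, *Xcr1* 6.07 against 2.66 for *Zbtb46*, and *Cd4* 6.45 against 1.03 for *Cd8a*. The macrophage, endothelial, dendritic and T cell sums thus mostly follow *Lyz2*, *Kdr*, *Xcr1* and *Cd4*. The part of any of these differences in the results below was not tested. In bulk RNA, a change in RNA per cell cannot be told from a change in the share of cells.

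The genes took several courses after LPS in both genotypes. *Adm* rose to a maximum at 3 hr, *P4ha1* rose to 6 hr, and *Bnip3*, *Ankrd37* and *Kdm3a* were lowest at 3 hr and highest at 9 hr. *Vegfa* was highest at 1 hr and lowest at 6 hr, and *Ndrg1* was highest at 3 hr and lowest at 9 hr. These are orders of the group means. The *Vegfa* rise to 1 hr in *Cpeb4*-/- (0.41) was not called (limma adjusted p = 0.067, or 0.0036 with the mouse as replicate block). Nor were the *Kdm3a* changes from 6 to 9 hr, 0.12 in WT and 0.11 in *Cpeb4*-/- (adjusted p = 0.18 and 0.21). Against 0 hr, 5, 9, 10 and 9 of the genes were called in WT BMDMs after 1, 3, 6 and 9 hr, where 37.7%, 69.9%, 79.9% and 73.7% of all tested genes were called in either direction (limma, adjusted p under 0.05). In *Cpeb4*-/- BMDMs 5, 8, 7 and 10 of the genes were called at these times, against 41.9%, 69.9%, 77.9% and 71.3% of all genes. The response to LPS was broad, and in *Cpeb4*-/- at 6 hr the share of the 10 genes was below that of all genes. The median change at 9 hr over the 10 genes was 0.41 in WT and 0.92 in *Cpeb4*-/-, while that of all tested genes was −0.004 and −0.008.

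To see at which times these genes differed between the genotypes, *Cpeb4*-/- and WT libraries were compared at each time. Shares of all genes stand beside the counts as a description, since the genes were chosen with earlier results known. None of the 10 genes was called at 0 hr or 1 hr, where 1.31% and 1.91% of all genes were called, and 3 genes at each of these times had an unadjusted p under 0.05 in limma, 1 higher and 2 lower. The fit of all 40 libraries together and the fit with the mouse as replicate block each called 0 genes at 0 hr and 3 at 1 hr. At 3 hr, *Adm* and *Ddit4* were higher in *Cpeb4*-/- (2 genes, against 1.81% of all genes). The calls at 6 hr were 6 genes higher (against 6.40%) and *Ndrg1* lower (against 9.92%), and those at 9 hr were 5 genes higher (against 4.69%). At 9 hr the count was 8 (7 higher and 1 lower) without *Cpeb4*-/- mouse 2. It was 3 without *Cpeb4*-/- mouse 62 and 2 without WT mouse 25 or 87, all higher. At 3 hr, 1 gene was left without WT mouse 25, 69 or 87 or *Cpeb4*-/- mouse 2, 3 or 62. Every call at 3, 6 and 9 hr had the same sign in both batches. That is bound to follow where the genotypes do not overlap, as in all these calls but *Vegfa* at 6 hr. There the differences were 0.465 in batch 1 and 0.278 in batch 2.

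The values of the genotypes separated in the same way. At 6 hr all 4 *Cpeb4*-/- values lay above all 4 WT values for 5 genes (8.16% of all genes) and below them for 1 (12.0%). By 9 hr they lay above for 7 genes, against 8.35% of all genes. Fewer genes were apart before, with 2 above at 3 hr (7.05% of all genes), 1 below at 1 hr (8.11%) and 0 in untreated cells (10.5% on either side). The median difference over the 10 genes was −0.01, −0.03 and −0.01 in the first 3 hr (at 0, 1 and 3 hr) and then 0.29 and 0.39 (at 6 and 9 hr), whereas the median of all tested genes was 0.01, 0.02 and 0.01 and then −0.015 and 0.004.

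**Figure D1:**
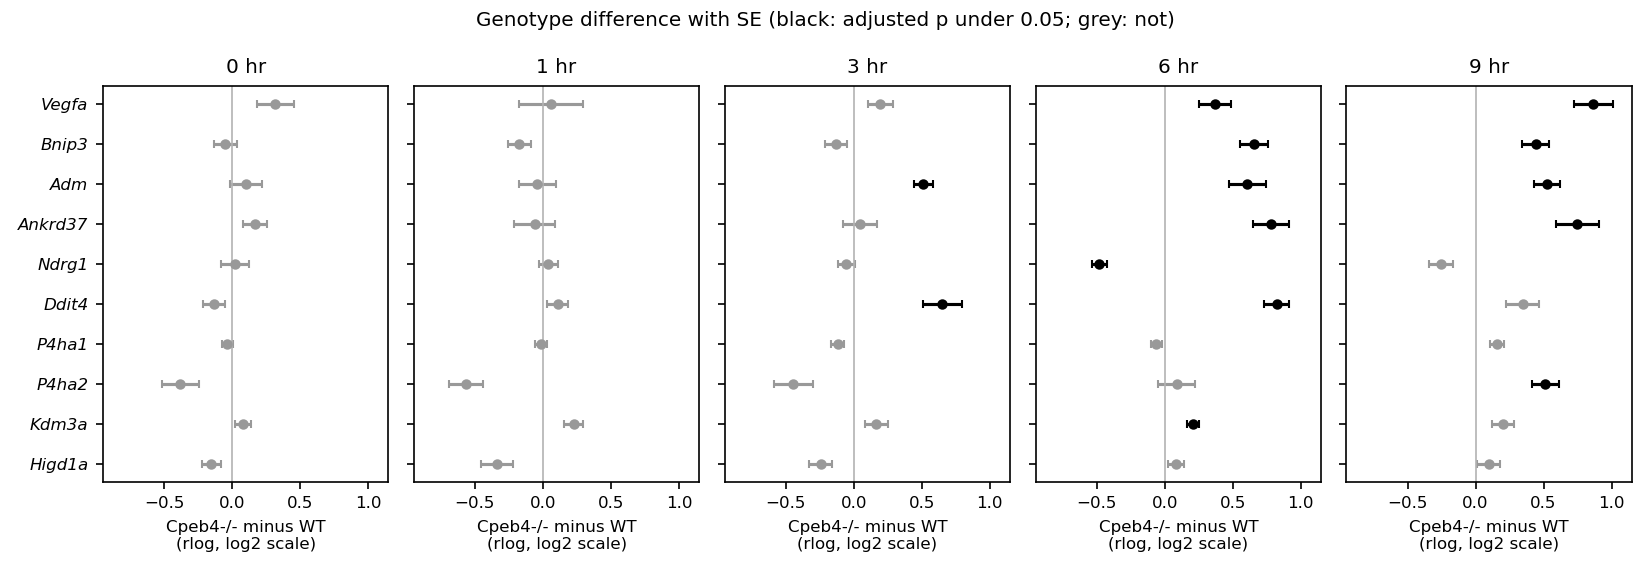
Difference between *Cpeb4*-/- and WT means (x axis, rlog, log2 scale) for each of the 10 genes (y axis) at 0, 1, 3, 6 and 9 hr of LPS. Points are the limma estimates from 4 against 4 libraries, bars the SE, and black points passed an adjusted p of 0.05. No gene is black in the first 2 panels, 2 are in the next, 7 at 6 hr and 5 in the last, and *P4ha2* moves from the left of 0 to the right between 3 hr and 9 hr.

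*Vegfa* (chr17:46016993-46032377) codes for the secreted growth factor that drives the growth of blood vessels. In WT BMDMs it rose by 0.67 at 1 hr (SE 0.179, adjusted p = 0.0029, or 0.071 with the WT libraries of 0 and 1 hr alone) and at 6 hr was 1.55 below its level at 0 hr, with a mean rlog of 8.37. At 9 hr the WT libraries had 8.63, 9.18, 8.71 and 9.08 and the *Cpeb4*-/- libraries 9.72, 9.54, 9.71 and 10.09. Every *Cpeb4*-/- library was therefore above every WT library. The difference at 9 hr was 0.87 (SE 0.142, adjusted p = 0.007, 1.82-fold), the widest of the 10 genes at that time, and it passed in all 16 alternative settings. In untreated cells *Vegfa* was already 0.32 higher in *Cpeb4*-/- (SE 0.133, limma adjusted p = 0.25), with overlapping groups. The difference at 6 hr departed from this by 0.05 (interaction adjusted p = 0.95). That at 9 hr departed by 0.55 (interaction adjusted p = 0.36, or 0.042 with the replicate block). The partial recovery between 6 and 9 hr was 0.53 in WT and 1.02 in *Cpeb4*-/- (both called, though for *Vegfa* in WT not without mouse 88, where it was 0.40 with an adjusted p of 0.11), but the difference between these changes, 0.49 (SE 0.253), was not (adjusted p = 0.37). At 6 hr the WT libraries had 8.33, 8.62, 8.35 and 8.17 and the *Cpeb4*-/- libraries 8.79, 8.43, 8.74 and 9.01. *Cpeb4*-/- mouse 3 and WT mouse 69 overlapped, and the difference of 0.37 (SE 0.117, adjusted p = 0.048) passed in only 3 of 16 alternatives, with adjusted p-values from 0.014 to 0.18. It was lost without any of WT mice 25 (0.099), 87 (0.09) and 88 (0.13) or *Cpeb4*-/- mice 2 (0.11), 55 (0.075) and 62 (0.12), given as adjusted p-values for *Vegfa*, and with the replicate block (adjusted p = 0.11).

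*Adm* (chr7:110627657-110629820) codes for adrenomedullin, a secreted peptide that widens blood vessels. It had the widest course of the 10 genes, from a WT mean of 4.03 at 0 hr to 7.83 at 3 hr, a rise of 3.79 (SE 0.114), and a *Cpeb4*-/- mean of 4.14 to 8.34, a rise of 4.20. At 3 hr the WT libraries had 7.85, 7.72, 7.92 and 7.81 and the *Cpeb4*-/- libraries 8.31, 8.46, 8.34 and 8.24. The groups were thus apart at the peak itself. They were also apart during the fall. After 6 hr the values were 6.24, 5.86, 6.34 and 5.98 in WT and 6.94, 6.89, 6.48 and 6.54 in *Cpeb4*-/-. After 9 hr they were 4.87, 4.89, 5.05 and 5.04 in WT and 5.43, 5.43, 5.48 and 5.61 in *Cpeb4*-/-. *Adm* was the only 1 of the 10 genes called at 3, 6 and 9 hr. Its genotype difference was 0.51 at the peak (SE 0.071, adjusted p = 0.0072), 0.61 at 6 hr (SE 0.135, adjusted p = 0.01) and 0.53 by 9 hr (SE 0.098, adjusted p = 0.012), which are 1.43-, 1.52- and 1.44-fold. The call at 6 hr was lost with no filter on low values (adjusted p = 0.063). At 1 hr, when *Adm* had already risen by 3.34 in WT, the genotypes overlapped and their means differed by −0.04.

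**Figure D2:**
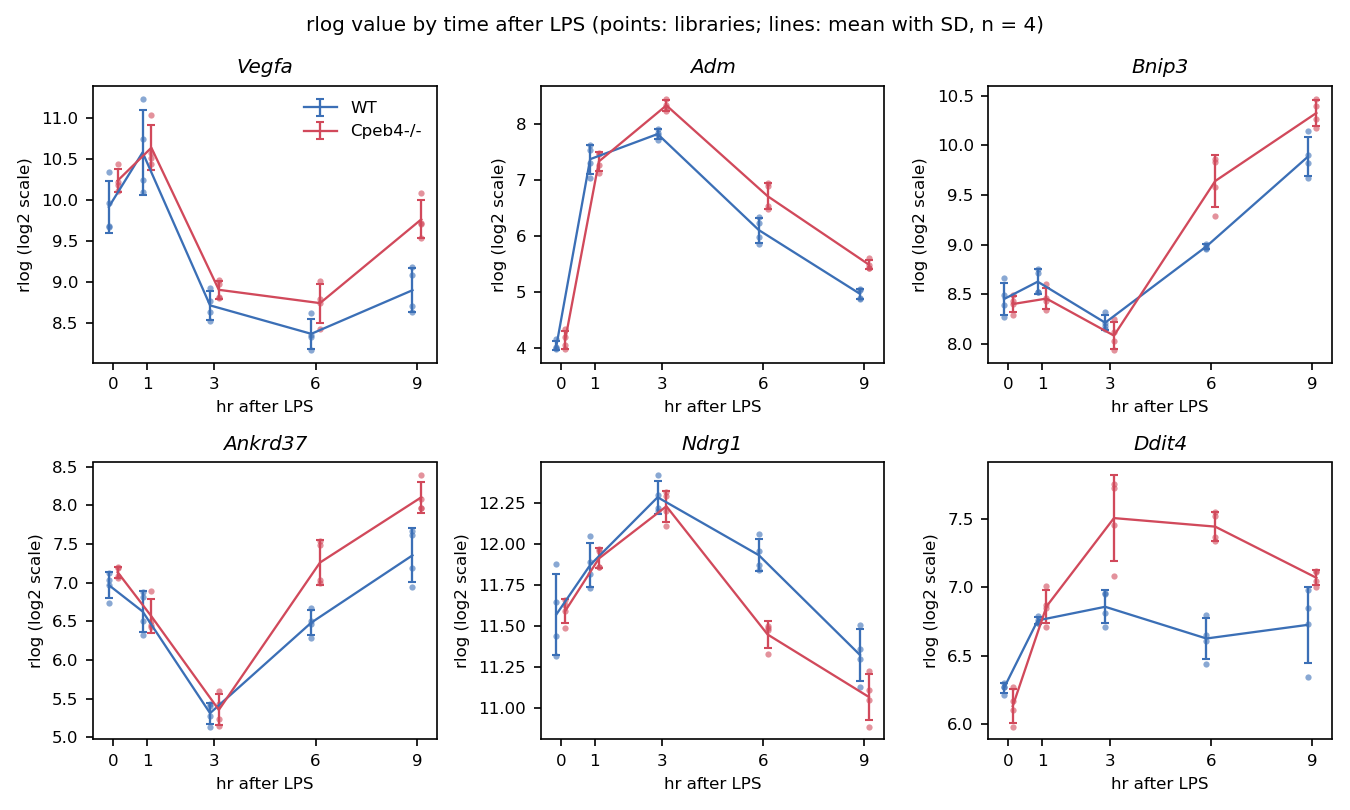
The rlog value (y axis, log2 scale, its own range in each panel) of *Vegfa*, *Adm*, *Bnip3*, *Ankrd37*, *Ndrg1* and *Ddit4* against hours after LPS (x axis). Points are libraries, lines join the means of 4 mice and bars are the SD, with WT in blue and *Cpeb4*-/- in red. *Bnip3* and *Ankrd37* separate at 6 and 9 hr but not at 3 hr, *Adm* and *Ddit4* separate from 3 hr on, and *Ndrg1* is lower in *Cpeb4*-/- at 6 hr.

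*Bnip3* (chr7:138890836-138909506) codes for an outer membrane protein of mitochondria that marks them for autophagy. It was slightly below its starting level at 3 hr in both genotypes (−0.24 in WT and −0.32 in *Cpeb4*-/-) and then rose. The low point was called in both, but not under quantile normalization (adjusted p = 0.32 and 0.092 for *Bnip3*), nor without WT mouse 25 (0.062), 87 (0.12) or 88 (0.087) or *Cpeb4*-/- mouse 55 (0.062). By 6 hr the WT libraries lay close together, at 8.99, 8.96, 9.01 and 8.97, and the *Cpeb4*-/- libraries were all higher, at 9.83, 9.29, 9.58 and 9.86. The difference was 0.66 (SE 0.103, adjusted p = 0.0016, 1.58-fold) and passed in all 16 alternatives. Values at 9 hr were 9.67, 9.90, 9.82 and 10.14 in WT and 10.47, 10.17, 10.26 and 10.40 in *Cpeb4*-/-. WT mouse 88 came close to the lowest *Cpeb4*-/- library, that of mouse 3, so the groups were separate by a small margin. The difference of 0.44 (SE 0.099, adjusted p = 0.025) passed in 9 of 16 alternatives, and for *Bnip3* the adjusted p rose to 0.075, 0.066 and 0.079 without WT mice 25, 69 and 87 and to 0.052 and 0.074 without *Cpeb4*-/- mice 55 and 62.

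*Higd1a* (chr9:121848557-121857796) codes for a protein of the inner mitochondrial membrane that associates with the respiratory chain. It rose with LPS to 9 hr, by 0.43 in WT and 0.68 in *Cpeb4*-/- (both called), and it was not called between genotypes at any time. Its WT libraries at 9 hr had 8.88, 9.06, 9.00 and 8.98 and the *Cpeb4*-/- libraries 9.30, 8.92, 9.12 and 8.97, which overlapped. The differences were 0.08 (SE 0.06) at 6 hr and 0.10 (SE 0.085) at 9 hr. At 1 hr its mean was lower in *Cpeb4*-/- (8.33 against 8.67), and this difference of −0.34 (SE 0.12, adjusted p = 0.1) passed only with all 40 libraries in one fit, without or with the replicate block (adjusted p = 0.0099 and 0.0078 for *Higd1a*). At 3 hr, −0.24 (adjusted p = 0.14) passed only without WT mouse 88 (adjusted p = 0.023).

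*Ankrd37* (chr8:45996908-46000414), which codes for a protein of ankyrin repeats, was, like *Bnip3*, lowest at 3 hr and highest at 9 hr. It fell by 1.66 in WT and 1.78 in *Cpeb4*-/- from 0 to 3 hr (SE 0.149 for both), and the genotypes overlapped there. Then, at 6 hr, the WT libraries had 6.67, 6.47, 6.28 and 6.51 and the *Cpeb4*-/- libraries 7.48, 6.99, 7.03 and 7.54. At 9 hr they had 6.94, 7.61, 7.19 and 7.67 in WT and 8.39, 7.97, 7.97 and 8.08 in *Cpeb4*-/-. The *Cpeb4*-/- libraries were higher without overlap at both times, and the WT libraries were spread more widely at 9 hr. The differences were 0.78 at 6 hr (SE 0.134, adjusted p = 0.0026, 1.72-fold) and 0.75 at 9 hr (SE 0.161, adjusted p = 0.021, 1.68-fold). The call at 6 hr passed in all 16 alternatives and that at 9 hr in 12, with an adjusted p of 0.053 and 0.07 without WT mice 25 and 87, 0.055 without *Cpeb4*-/- mouse 62 and 0.082 with no filter on low values for *Ankrd37*.

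*Ddit4* (chr10:59949675-59951770) codes for REDD1, an inhibitor of mTORC1 and so of cell growth. In WT BMDMs it rose by 0.49 to 1 hr and stayed near that level, with means between 6.63 and 6.86 from 1 to 9 hr. In *Cpeb4*-/- it went on to 7.51 at 3 hr and 7.45 at 6 hr. WT libraries at 6 hr had 6.61, 6.65, 6.80 and 6.44 and the *Cpeb4*-/- libraries 7.55, 7.34, 7.37 and 7.52. The groups were far apart, and the difference of 0.82 (SE 0.09, adjusted p = 0.00023, 1.77-fold) passed in all 16 alternatives. At 3 hr the values were 6.71, 6.96, 6.81 and 6.95 in WT and 7.73, 7.46, 7.08 and 7.76 in *Cpeb4*-/-. The groups were separate, with *Cpeb4*-/- mouse 55 nearest to WT, but the difference of 0.65 (SE 0.142, adjusted p = 0.039) passed in only 7 of 16 alternatives. For *Ddit4* at 3 hr the adjusted p was 0.11, 0.051 and 0.072 without WT mice 25, 69 and 87 and 0.11 without *Cpeb4*-/- mouse 2, 3 or 62. At 9 hr all *Cpeb4*-/- values (7.12, 7.00, 7.05 and 7.11) were above all WT values (6.34, 6.98, 6.73 and 6.85), and the difference of 0.35 (SE 0.124) did not pass (adjusted p = 0.11, or 0.032 with the replicate block).

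*Ndrg1* (chr15:66929318-66969641), whose cytoplasmic product is induced by stress and differentiation, was the only 1 of the 10 genes called lower in *Cpeb4*-/-. It rose by 0.71 in WT and 0.64 in *Cpeb4*-/- from 0 to 3 hr (SE 0.088 for both), with overlapping genotypes. By 6 hr the WT libraries had 11.84, 11.87, 12.06 and 11.96 and the *Cpeb4*-/- libraries 11.48, 11.33, 11.50 and 11.49. All *Cpeb4*-/- values were below all WT values, and the difference of −0.48 (SE 0.055, adjusted p = 0.00031, 0.717-fold) passed in all 16 alternatives. At 6 hr WT was 0.36 above its own level at 0 hr, a call whose direction depended on the scaling, since quantile normalization gave −0.14 (adjusted p = 0.17) for *Ndrg1*. Values at 9 hr were 11.13, 11.36, 11.51 and 11.30 in WT and 11.11, 10.89, 11.05 and 11.23 in *Cpeb4*-/-. *Cpeb4*-/- mouse 62 overlapped with WT, and the difference of −0.26 (SE 0.089, adjusted p = 0.1) passed only with the replicate block (adjusted p = 0.015), with all 40 libraries in one fit (0.039) and without *Cpeb4*-/- mouse 2 (0.04).

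*P4ha1* (chr10:59323197-59373304) and *P4ha2* (chr11:54100924-54131668) code for alternative catalytic subunits of the collagen prolyl 4-hydroxylase, which stabilizes the collagen triple helix, and they differed in course and in genotype response. *P4ha1* rose by 1.58 in WT and 1.56 in *Cpeb4*-/- to 6 hr (SE 0.038 for both). At that time the WT libraries had 12.86, 12.91, 12.90 and 12.91 and the *Cpeb4*-/- libraries 12.82, 12.78, 12.92 and 12.81, which overlapped. At 9 hr it had fallen to 12.49, 12.65, 12.57 and 12.62 in WT and stood at 12.73, 12.67, 12.77 and 12.79 in *Cpeb4*-/-, where all values were above those of WT. The difference of 0.16 (SE 0.051) did not pass (adjusted p = 0.082), but passed with the replicate block (0.0055), in all 40 libraries without it (0.0033), with quantile normalization (0.038) and without *Cpeb4*-/- mouse 2 (0.026). The change from 6 to 9 hr was −0.32 in WT and −0.10 in *Cpeb4*-/-. Both were called, but under quantile normalization they were −0.06 (adjusted p = 0.21) and 0.11 (adjusted p = 0.013) for *P4ha1*, so the direction in *Cpeb4*-/- depended on the scaling. The call in *Cpeb4*-/- was also lost without mouse 2 (adjusted p = 0.093), 3 (0.1) or 55 (0.15).

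*P4ha2* changed the sign of its genotype difference over the course. At 0 hr the WT libraries had 7.01, 6.83, 6.79 and 6.95 and the *Cpeb4*-/- libraries 6.94, 6.40, 6.50 and 6.22. At 1 hr they had 6.82, 6.78, 6.95 and 7.06 in WT and 6.68, 6.27, 6.27 and 6.12 in *Cpeb4*-/-. *Cpeb4*-/- libraries were lower, with mouse 2 among the WT values at 0 hr and none overlapping at 1 hr. These differences of −0.38 (SE 0.135, adjusted p = 0.2) and −0.57 (SE 0.125, adjusted p = 0.054) did not pass, and neither did −0.45 at 3 hr (SE 0.142, adjusted p = 0.1). With the replicate block the adjusted p for *P4ha2* was 0.09, 0.0023 and 0.018 at 0, 1 and 3 hr, and the difference at 1 hr also passed without WT mouse 69 (0.039) or *Cpeb4*-/- mouse 2 (0.019). At 6 hr, after a change of −0.62 in WT (−0.235 and not called under quantile normalization, adjusted p = 0.13), the groups overlapped. Their difference was 0.09, from −0.21 in batch 1 and 0.39 in batch 2. Finally, at 9 hr, the WT libraries had 6.87, 6.76, 6.79 and 7.19 and the *Cpeb4*-/- libraries 7.49, 7.38, 7.35 and 7.43, all higher. This difference of 0.51 (SE 0.1, adjusted p = 0.014, 1.43-fold) passed in 14 of 16 alternatives, with an adjusted p of 0.051 without WT mouse 25 and 0.052 without WT mouse 87.

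**Figure D3:**
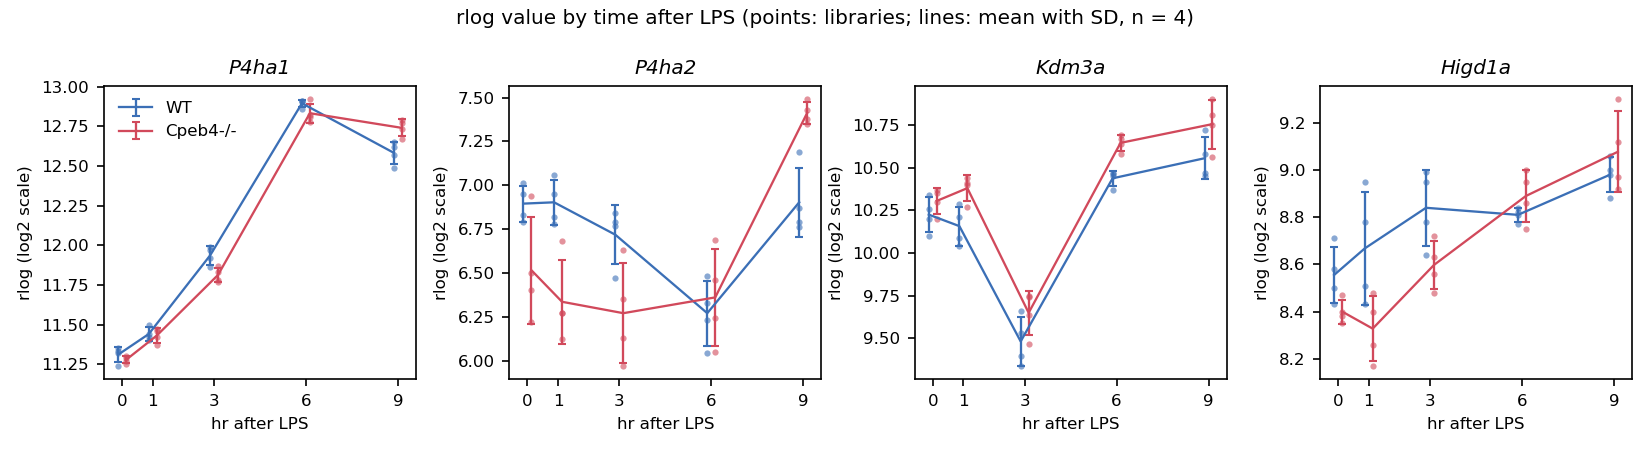
The rlog value (y axis, log2 scale, its own range in each panel) of *P4ha1*, *P4ha2*, *Kdm3a* and *Higd1a* against hours after LPS (x axis). Points are libraries, lines join the means of 4 mice and bars are the SD, with WT in blue and *Cpeb4*-/- in red. The *P4ha2* lines cross near 6 hr, from a mean difference of −0.57 at 1 hr to 0.51 at 9 hr.

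*Kdm3a* (chr6:71588970-71632990) codes for a histone demethylase that is itself an oxygen-dependent enzyme. It was lowest at 3 hr in both genotypes (−0.74 in WT and −0.65 in *Cpeb4*-/- against 0 hr, SE 0.073 for both). At 6 hr the WT libraries had 10.47, 10.46, 10.37 and 10.45 and the *Cpeb4*-/- libraries 10.67, 10.58, 10.69 and 10.64. The groups were narrow and separate, and the difference, though only 0.21 (SE 0.042, 1.16-fold), passed (adjusted p = 0.0065, or 0.054 with the replicate block). At 9 hr the values were 10.47, 10.58, 10.45 and 10.72 in WT and 10.56, 10.81, 10.75 and 10.90 in *Cpeb4*-/-. *Cpeb4*-/- mouse 2 was among the WT values, and the difference of 0.20 (SE 0.082, adjusted p = 0.15) became 0.27 (adjusted p = 0.011) without it for *Kdm3a*. At 1 hr the difference of 0.23 (SE 0.068) did not pass (adjusted p = 0.083, or 0.024 with the replicate block).

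Whether the genotype difference itself changed with time was tested as an interaction over the 40 libraries, with no term for the mouse. At 6 hr it departed from that at 0 hr for 3 of the 10 genes, against 2.94% of all genes. The departure was 0.71 for *Bnip3* (SE 0.141, adjusted p = 0.0038), 0.95 for *Ddit4* (SE 0.158, adjusted p = 0.00045) and −0.50 for *Ndrg1* (SE 0.124, adjusted p = 0.021). With the mouse as a replicate block 6 genes passed, the others being *Adm* (0.51, adjusted p = 0.02), *Ankrd37* (0.61, 0.026) and *P4ha2* (0.47, 0.02). The departure of *Ndrg1* was lost with quantile normalization (adjusted p = 0.075) and without WT mice 69 (0.074) and 88 (0.059) or *Cpeb4*-/- mice 2 (0.067), 3 (0.054) and 62 (0.1).

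At 9 hr the difference departed from that at 0 hr for 1 gene, *P4ha2*, against 1.76% of all genes (0.89, SE 0.202, adjusted p = 0.013, or 5.1e-05 with the replicate block). It was lost for *P4ha2* without WT mouse 25 (adjusted p = 0.08) and *Cpeb4*-/- mice 3 (0.071) and 62 (0.055). With the replicate block 6 genes passed at 9 hr, *P4ha2* with *Vegfa* (0.55, adjusted p = 0.042), *Bnip3* (0.49, 0.0036), *Ankrd37* (0.58, 0.047), *P4ha1* (0.19, 0.031) and *Ndrg1* (−0.28, 0.024). Without WT mouse 88, *Bnip3* (0.57, adjusted p = 0.048) and *P4ha1* (0.23, adjusted p = 0.035) passed beside *P4ha2*. As for 3 hr, only *Ddit4* passed, against 0.206% of all genes (0.78, SE 0.158, adjusted p = 0.025), and for *Ddit4* this call was lost with the libraries of these times alone (adjusted p = 0.095) and without WT mouse 25 (0.14), 87 (0.13) or 88 (0.058) or *Cpeb4*-/- mouse 2 (0.11), 3 (0.054) or 62 (0.26). At 1 hr no gene passed in limma, against 0.00763% of all genes, and none had an unadjusted p under 0.05. Between 6 and 9 hr the genotype difference moved for *P4ha1*, against 1.92% of all genes (0.22, SE 0.054, adjusted p = 0.023), and for *P4ha1* this call was lost with the libraries of these times alone and with quantile normalization (adjusted p = 0.11 in both) and without WT mouse 25 (0.081) or 87 (0.06) or *Cpeb4*-/- mouse 2 (0.062), 3 (0.058) or 62 (0.21). With the replicate block *P4ha2* (0.425, adjusted p = 0.043) and *Ddit4* (−0.477, adjusted p = 0.049) also passed.

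Other genes of the pathway were taken from lists written by hand. Their calls are given beside the same background of 16.3% at 6 hr and 7.91% at 9 hr in either direction. By direction, this background was 6.40% higher and 9.92% lower at 6 hr, and 4.69% higher at 9 hr. Of 10 HIF subunits and oxygen sensors, 9 were tested. At 6 hr, 4 of them were called higher in *Cpeb4*-/- and 1 was called lower, and by 9 hr these counts were 2 and 1, with median differences of 0.04 and 0.12. *Hif1a*, the alpha subunit, was 0.35 higher at 6 hr (SE 0.058, adjusted p = 0.0022) and differed by 0.47 at 9 hr (SE 0.138, adjusted p = 0.063), where *Cpeb4*-/- mouse 2, at 13.11, lay among the WT values of 12.96 to 13.29. At 9 hr *Hif1a* passed in 5 of 16 alternatives, with adjusted p-values from 0.00072 without that mouse, where the difference was 0.625, to 0.18, and 0.0028 with the replicate block. *Egln3*, a prolyl hydroxylase that is also a HIF target, was 0.88 higher at 6 hr and 0.89 higher at 9 hr (adjusted p = 0.0013 and 0.024). At 9 hr *Egln3* passed in 11 of 16 alternatives and was lost with no filter (adjusted p = 0.092) and without WT mouse 25 (0.073), 69 (0.07) or 87 (0.072) or *Cpeb4*-/- mouse 62 (0.059). The prolyl hydroxylase *Egln1* was 0.36 and 0.46 higher, whereas *Egln2*, the other enzyme of the family, was lower (differences of −0.21 and −0.285).

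Among 20 glycolytic HIF targets, the calls were 8 up and 2 down at 6 hr, then 8 up and 0 down at 9 hr, with median differences of 0.15 and 0.24. The widest called differences at 6 hr were those of the lactate exporter *Slc16a3* (0.48), the phosphofructokinase *Pfkl* (0.40), the aldolase *Aldoc* (−0.38) and the glucose transporter *Slc2a1* (0.38), and at 9 hr those of the pyruvate dehydrogenase kinase *Pdk1* (0.55), *Slc2a1* (0.53), the hexokinase *Hk2* (0.42) and *Slc16a3* (0.34). Among 32 other non-glycolytic targets, of which 27 were tested, the calls were 5 up and 3 down at 6 hr, then 7 up and 2 down at 9 hr, with median differences of 0.11 and 0.12. *Car12*, *Epo*, *Loxl2*, *Stc2* and *Vldlr* did not pass the filter on low values at these times. The widest called differences of this list were those of the adenylate kinase *Ak4* (0.64), the transcription factor *Bhlhe40* (0.57), the mitochondrial protein *Fam162a* (0.49) and the endoplasmic reticulum oxidase *Ero1l* (0.37) at 6 hr, and of the MYC antagonist *Mxi1* (0.80), the chemokine receptor *Cxcr4* (0.75), *Ak4* (0.73) and *Bhlhe40* (0.67) at 9 hr. Those of *Bhlhe40* and *Ak4* were not confined to the late times. By limma, *Bhlhe40* was called higher before LPS (0.457, adjusted p = 0.032) and after 3 hr (0.522, adjusted p = 0.016). *Ak4* was called after 3 hr (0.498, adjusted p = 0.018), and its difference of 0.351 before LPS did not pass (adjusted p = 0.12). *Fam162a*, *Ero1l*, *Mxi1* and *Cxcr4* were not called at 0, 1 or 3 hr. The 10 genes described here had the highest median of the 4 lists at 6 hr and 9 hr, 0.29 and 0.39, a description with no test, since all lists were chosen with results of these data known.

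**Figure D4:**
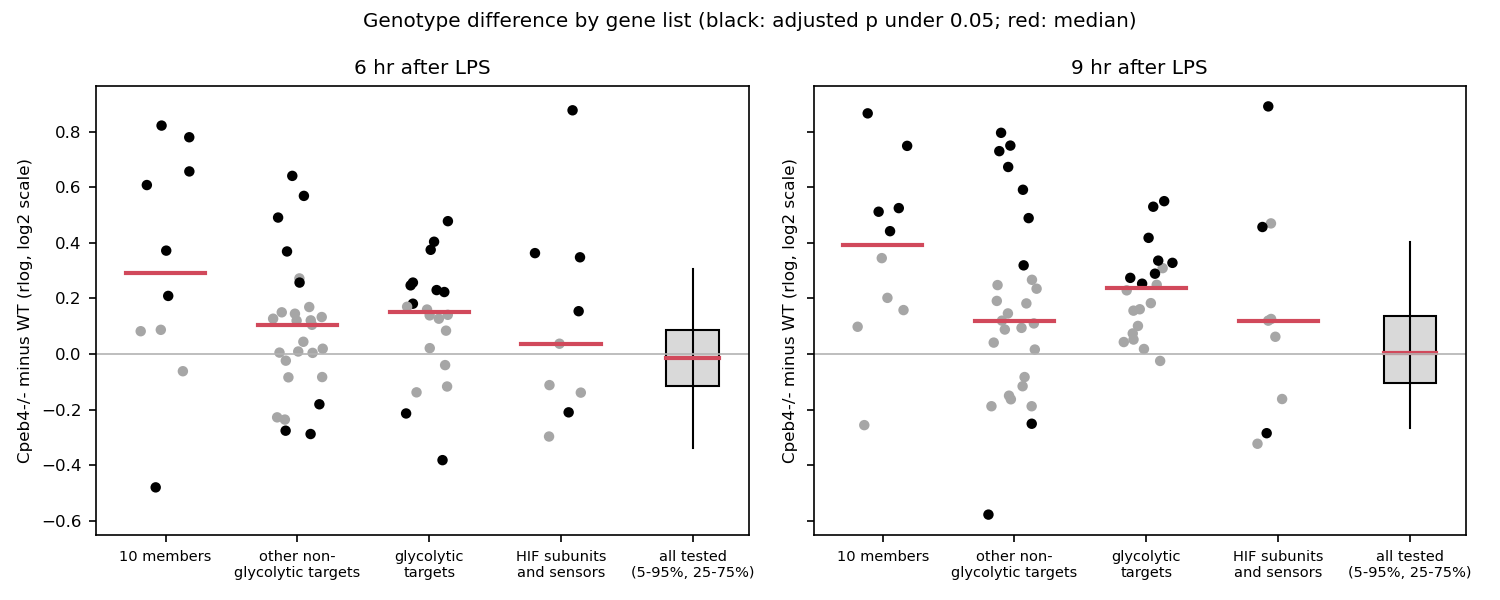
Difference between *Cpeb4*-/- and WT (y axis, rlog, log2 scale) of each tested gene of the 4 lists at 6 hr and 9 hr of LPS. Points are genes (black, adjusted p under 0.05), red bars the median, and the box and line at the right the 25th to 75th and 5th to 95th percentiles of all tested genes. The median of the 10 genes is 0.29 at 6 hr and 0.39 at 9 hr, with *Ndrg1* the lowest of them at −0.48 and −0.26.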

How the data were processed

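Libraries of BMDMs from 4 WT and 4 *Cpeb4*-/- mice at 5 times were grouped by their labels. The authors isolated poly(A) RNA, aligned reads to mm10 with STAR (2.3.0e), counted them per gene with featureCounts and, with DESeq2, deposited regularized log2 values (rlog) for 27179 genes, which correct for library size and shrink low genes. Counts were not used here, so limma 3.58.1 (R 4.3.3, eBayes with trend) stands in for the authors' count test. Genotypes were compared at each time over 8 libraries, in genes whose mean rlog reached log2 of 5. Times and interactions were contrasts of 10 group means over 40 libraries, with no mouse term, so the libraries of a mouse counted as independent. p-values were Benjamini-Hochberg adjusted over all tested genes and called under 0.05.

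A number marks the same mouse at all times. After removal of group means, the median correlation between times was 0.29 within a mouse (r exceeded 0.1 in 68 of 80 pairs) and −0.091 between mice. The replicate block was the mouse, as a random effect for genotype and a fixed effect otherwise. The alternatives were other filters, priors and scalings, batch as a covariate, other sets of libraries, the block, and leaving out each mouse. Differences within each batch were described with no test and are not among the alternatives counted. The fits were also run on simulated data with known changes and independent libraries, which cannot show how shared mice affect them. The genes and lists were chosen with earlier results of these data known. Named genes were the 10 genes, *Hif1a*, *Egln3*, *Cpeb4*, up to 4 called genes with the largest difference in each list at 6 and 9 hr, and the 3 genes nearest in course to each of the 3 genes of widest range. Markers and sequence matches were described with no test.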

Additional observations from a re-analysis of the deposited data

Results flagged for a closer look

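A library far from its 3 group mates was looked for in 100 groups of 4 (Dixon's test, which chance passes in about 1 of 20 groups), and 3 were found. *Ankrd37* was high in *Cpeb4*-/- mouse 2 at 1 hr (6.89, where the other libraries had 6.45, 6.42 and 6.50). *Ndrg1* was low in *Cpeb4*-/- mouse 3 at 6 hr (11.33, against 11.48 to 11.50), and *Kdm3a* was low in WT mouse 87 at 6 hr (10.37, against 10.45 to 10.47). The genotype difference changed between times, by the interaction test, for *Bnip3* at 6 hr against 0 hr (0.71), *Ndrg1* at 6 hr (−0.50), *Ddit4* at 3 hr (0.78) and 6 hr (0.95), *P4ha2* at 9 hr (0.89) and *P4ha1* at 9 hr against 6 hr (0.22).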

How the results depend on the processing

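Of the 20 counts of called genes, 10 moved by over 1.5 times in some setting. Genotype calls at 1 hr went from 0 to 3 with all 40 libraries in one fit, without or with the replicate block, and ranged from 0 to 1 when 1 mouse was left out. At 3 hr they went from 2 to 4 with all 40 libraries and to 1 with no filter, without the trend or with batch as a covariate, and ranged from 1 to 3 when 1 mouse was left out. At 9 hr they went from 5 to 8 with all 40 libraries, without or with the block, and to 3 with no filter, and ranged from 2 to 8 when 1 mouse was left out. Quantile normalization moved the changes at 1 hr from 5 to 3 in WT and from 5 to 3 in *Cpeb4*-/-, and at 6 hr in WT from 10 to 6, and fitting the 8 WT libraries of 0 and 1 hr alone gave 2. Departures of the genotype difference went from 3 to 6 at 6 hr, from 1 to 6 at 9 hr and from 1 to 3 between 6 and 9 hr with the block. They went from 1 to 2 at 9 hr with no filter, a mean rlog of at least 5 or quantile normalization, from 1 to 0 at 3 hr and between 6 and 9 hr with the libraries of the 2 times alone, and from 1 to 0 between 6 and 9 hr with quantile normalization. When 1 mouse was left out they ranged from 0 to 1 at 3 hr, 0 to 3 at 9 hr and 0 to 1 between 6 and 9 hr. The causes were not tested.

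Some values changed sign. With quantile normalization *P4ha1* gave 0.017 between genotypes at 6 hr, −0.026 in WT from 0 to 1 hr and 0.112 in *Cpeb4*-/- from 6 to 9 hr, and *Ndrg1* gave −0.141 in WT from 0 to 6 hr. When 1 mouse was left out, the genotype difference ranged from −0.039 to 0.111 for *Ankrd37* at 3 hr and from −0.022 to 0.189 for *P4ha2* at 6 hr. The replicate block changed no genotype call of the 10 genes beside those given with them. Without counts, the precision that depth gives was not assessed. 4 mice against 4 cannot give an exact permutation p below 0.029. The p-values of the genotype tests at a single time measure the spread between these mice. Those of the main time and interaction tests pool the spread of libraries within the 10 groups and take the libraries of a mouse as independent.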

Other observations

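The genes nearest in course to the 3 genes of widest range were ranked by the root-mean-square difference of the 10 centred group means, among 12952 tested genes. For *Adm*, whose group means spanned 4.30, they were *Plat* (0.365), which codes for tissue plasminogen activator, the macrophage growth factor *Csf1* (0.383) and *Tpbg* (0.441). For *Ankrd37*, with a span of 2.79, they were *Ppp1r3b* (0.181), which codes for a subunit that directs a phosphatase to glycogen, *Narf* (0.216) and *Ccdc125* (0.231). For *Vegfa*, with a span of 2.27, they were *Eepd1* (0.191), *Jmy* (0.213) and *Tnrc6b* (0.218). These are descriptions over 10 group means that share mice.

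*P4ha2* and *Cpeb4* lie on chromosome 11 with 22.2 Mb between them, and *P4ha1* and *Ddit4* lie on chromosome 10 with 0.576 Mb between them. Whether these positions bear on the values of the genes was not tested. The *Cpeb4*-/- libraries of mouse 2 had the highest *P4ha2* value of their group at all 5 times (6.94, 6.68, 6.63, 6.69 and 7.49).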
